A study of Mus musculus with 6 samples.

Results

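Macrophage and myeloid transcripts were followed across preparations of isolated mouse heart cells, as a list of 39 genes that mark macrophages or, more widely, myeloid cells. The list was selected on the log2 values of these same arrays as well as on what the genes are known for. A gene was measured where at least 1 probe set of the array was annotated to it alone, and where there were several, the 1 of highest mean across arrays stands for it. This gave 38 of the 39 genes, out of 18193 genes in all. The remaining one, Spp1, was not analysed here. Since earlier results of these data were known when it was drawn up, its counts and medians are descriptions and no test of the list is given.

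Macrophages are phagocytes that take up dead cells, debris and microbes and break them down in lysosomes. They depend on the growth factor receptor Csf1r and on the transcription factor PU.1, which Spi1 encodes, and they bind opsonised targets through Fc and complement receptors that signal through small adaptors such as Tyrobp. The heart holds resident macrophages from fetal life on, lying between the muscle cells and fibroblasts, so a preparation of either cell type can carry some of them along.

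Affymetrix expression arrays (6, with biotin as the only label) were run on total RNA, in 3 groups of 2, all from C57BL/6J mice. Neonatal cardiomyocytes and neonatal cardiac fibroblasts came from hearts of both sexes at postnatal day 1, separated on Percoll, a density medium. Adult cardiomyocytes came from males of 8 weeks, by Langendorff perfusion through the aorta. The protocol text common to all samples names trypsin and collagenase, and a plating step checked with the mitochondrial dye TMRM for leftover cardiomyocytes, while the design text calls the cells fresh. Age, sex and isolation differ together between adult and neonatal cells. Whether replicate arrays stem from separate litters is not in the labels, so p-values measure only array-to-array spread, possibly technical.

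The groups follow the source name and cell type fields. The title of neonatal cardiomyocyte replicate 1 names fibroblasts, and that of fibroblast replicate 1 names cardiomyocytes. Among marker genes, the cardiac troponin gene Tnni3 read 13.58 and 13.71 for neonatal cardiomyocytes, 6.07 and 10.86 for fibroblasts, and 13.88 and 14.06 for adult cardiomyocytes (replicates 1 and 2 in each group, log2 RMA values). The fibroblast transcription factor gene Tcf21 read 7.37 and 7.84, then 12.31 and 12.09, then 6.26 and 7.48. Both markers therefore stood with the source names and not with the titles. Fibroblast replicate 2 also carried more cardiomyocyte transcript than replicate 1: over 10 cardiomyocyte markers the median difference was −2.64 (replicate 1 minus replicate 2). Results for the titles' grouping, and without both arrays, stand beside the counts they change.

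The myeloid genes were highest on fibroblast replicate 1. Their median log2 value was 11.18 on fibroblast replicate 1 and 8.42 on fibroblast replicate 2. On the cardiomyocyte arrays it was 6.57 and 5.53 (neonatal) and 6.31 and 7.10 (adult). The median over all 18193 genes lay between 6.46 and 6.67 on every array. Of the 38 members, 35 were highest on fibroblast replicate 1, where 17.3% of all genes had their highest array. The exceptions were Gpnmb (highest on fibroblast replicate 2), Ccr2 (adult replicate 1) and Cd163 (adult replicate 2). Neonatal cardiomyocyte replicate 2 was the lowest array for 27 members.

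**Figure D1:**
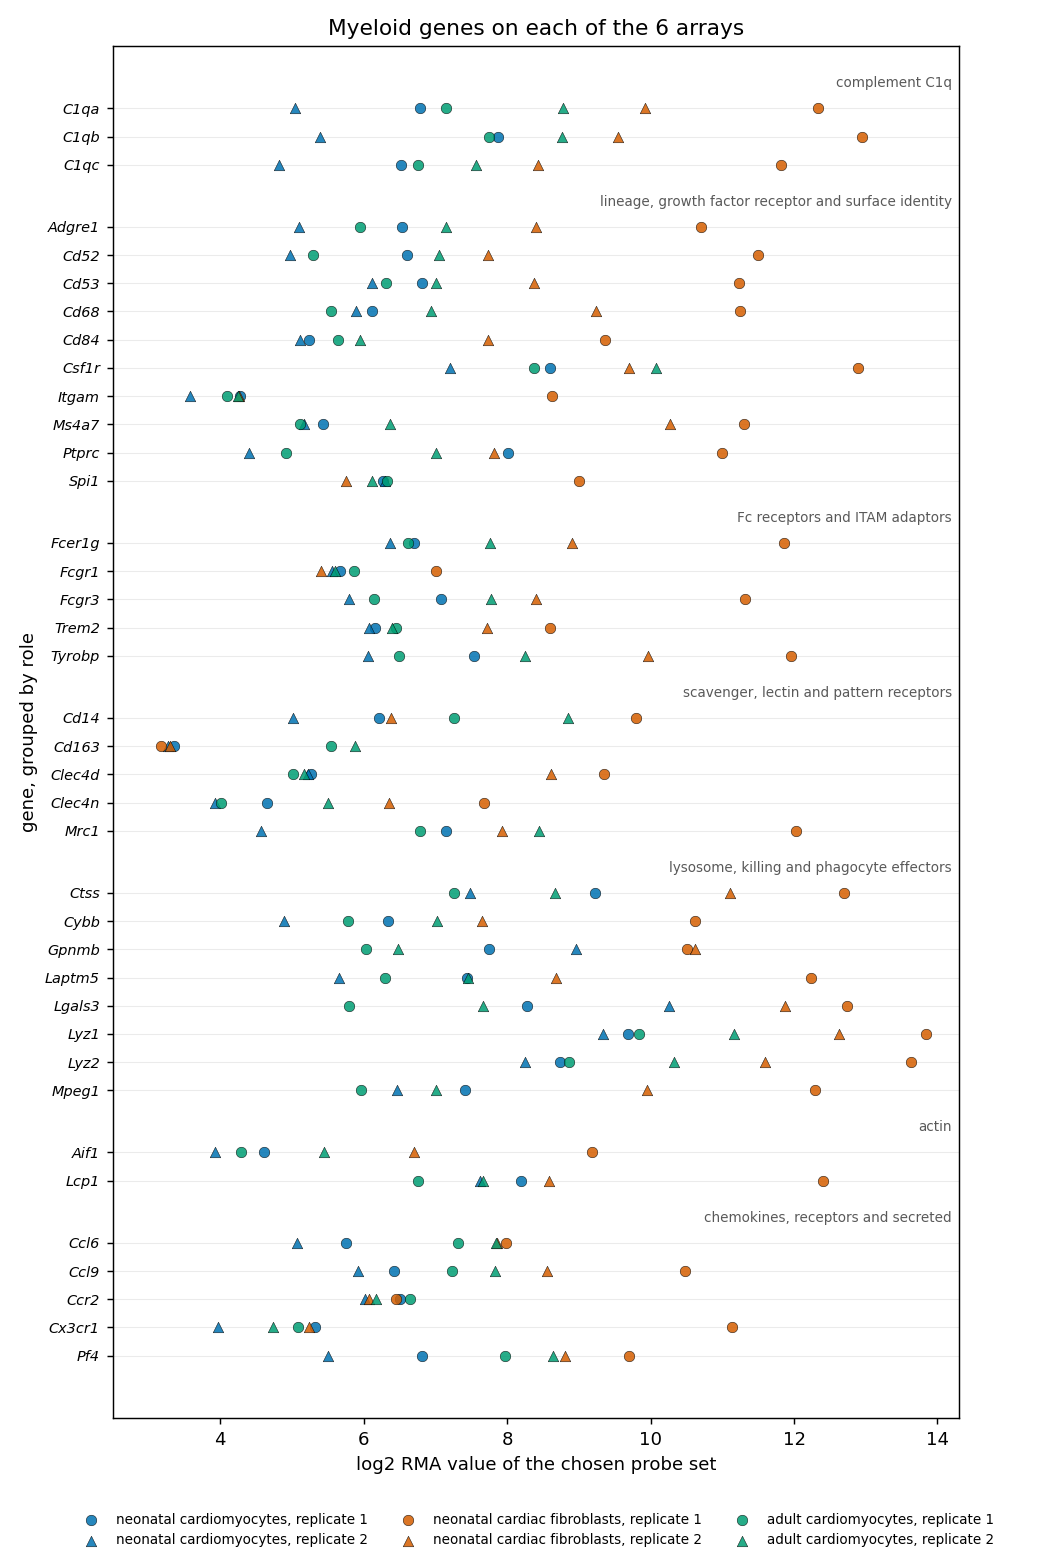
Log2 RMA value (horizontal axis) of each of the 38 measured myeloid genes (rows, by role) on each of the 6 arrays, as a point whose colour gives the group and whose shape the replicate. Fibroblast replicate 1 holds the highest value of 35 members, and neonatal cardiomyocyte replicate 2 the lowest of 27.

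Some of these genes lie side by side on their chromosomes, and their upstream sequence is shown because the members moved together across arrays. In the RefSeq gene order C1qb, C1qc and C1qa follow one another with no other protein-coding gene between, and so do Ccl9 and Ccl6, Clec4n and Clec4d, and Lyz2 and Lyz1. RefSeq promoter windows on GRCm38.p6, from 250 bases before to 50 bases after the gene's start, were at hand for 30 of the 38 measured members. The purine-rich core GAGGAA, a form of the motif that PU.1 is known to bind, was searched on both strands. It was found for 18 of the 30 members with a window (60.0%) and for 8446 of all 27025 genes with one (31.3%). A gene with several windows counted once, as a match if any of them held the motif. The E-box CACGTG, searched likewise, was in 0 of the 30 and in 8.09% of all. Such a match describes letters in a window and is not a binding site. The 250 bases upstream of 5 members follow, 5′ to 3′ on the gene's strand, with GAGGAA or its reverse complement TTCCTC in capitals. C1qb and C1qc are neighbours that share the fibroblast pattern, Clec4d fell in the neonatal comparison, Cx3cr1 was high on 1 array alone, and Cd163 did not follow the others.
C1qb (chr4:136886201-136886450, minus strand): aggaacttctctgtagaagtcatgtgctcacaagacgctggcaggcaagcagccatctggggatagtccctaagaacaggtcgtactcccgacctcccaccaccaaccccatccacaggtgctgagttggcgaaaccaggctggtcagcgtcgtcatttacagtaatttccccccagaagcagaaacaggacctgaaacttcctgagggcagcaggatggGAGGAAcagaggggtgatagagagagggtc
C1qc (chr4:136892915-136893164, minus strand): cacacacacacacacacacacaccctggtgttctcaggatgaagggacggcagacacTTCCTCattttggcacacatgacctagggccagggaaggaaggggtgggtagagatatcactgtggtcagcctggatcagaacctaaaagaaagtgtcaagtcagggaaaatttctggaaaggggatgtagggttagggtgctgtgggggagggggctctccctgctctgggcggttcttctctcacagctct
Clec4d (chr6:123261857-123262106, plus strand): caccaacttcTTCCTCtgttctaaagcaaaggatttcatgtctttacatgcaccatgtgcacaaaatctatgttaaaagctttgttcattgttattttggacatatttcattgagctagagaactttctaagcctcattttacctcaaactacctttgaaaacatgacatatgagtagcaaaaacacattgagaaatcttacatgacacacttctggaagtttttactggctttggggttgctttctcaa
Cx3cr1 (chr9:120068297-120068546, minus strand): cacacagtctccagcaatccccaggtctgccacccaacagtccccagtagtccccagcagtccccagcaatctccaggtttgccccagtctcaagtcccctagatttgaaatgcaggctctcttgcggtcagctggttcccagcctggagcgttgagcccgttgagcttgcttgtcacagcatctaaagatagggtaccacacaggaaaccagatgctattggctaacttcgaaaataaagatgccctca
Cd163 (chr6:124304401-124304650, plus strand): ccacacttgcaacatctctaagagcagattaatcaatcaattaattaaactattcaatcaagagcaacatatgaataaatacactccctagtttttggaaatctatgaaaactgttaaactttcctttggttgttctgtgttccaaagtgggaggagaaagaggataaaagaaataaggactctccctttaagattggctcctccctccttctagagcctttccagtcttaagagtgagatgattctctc
The match begins 30 bases upstream of the start in C1qb, 193 in C1qc and 240 in Clec4d. The upstream bases of Cx3cr1 and Cd163 hold no match. These 5 do not stand for the list. The 12 members without a match include Lyz1, Lyz2, Fcer1g, Mpeg1, Lcp1 and Ccl9, whose fibroblast arrays both lay above all cardiomyocyte arrays. The 18 with a match include Itgam, Ptprc and Fcgr1, for which fibroblast replicate 2 did not lie above both neonatal cardiomyocyte arrays. Whether a match goes with the pattern was not tested.

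C1qa, C1qb and C1qc encode the chains of C1q, the first component of the classical complement pathway, which in tissues comes mainly from macrophages. C1qa read 6.79 and 5.04 for neonatal cardiomyocytes, 12.34 and 9.93 for fibroblasts, and 7.15 and 8.78 for adult cardiomyocytes. C1qb read 7.88 and 5.39, 12.95 and 9.55, and 7.75 and 8.77, with the groups listed as for C1qa, an order kept below. C1qc read 6.52 and 4.82, 11.82 and 8.43, and 6.75 and 7.56. For all 3 genes both fibroblast arrays lay above all cardiomyocyte arrays, and replicate 1 lay above replicate 2 by 2.41 to 3.40. The C1qa mean was 5.92 ± 1.24 (SD, n = 2) in neonatal cardiomyocytes and 11.13 ± 1.71 (SD, n = 2) in fibroblasts. Its difference, neonatal cardiomyocytes minus fibroblasts, was −5.21 ± 1.07 (SE), 37.1-fold, with a limma adjusted p = 0.0998. The C1qb and C1qc differences were −4.61 (adjusted p = 0.194) and −4.45 (adjusted p = 0.169), so none of the 3 passed the threshold of 0.05. Adult minus neonatal cardiomyocytes gave 2.05, 1.62 and 1.49 for C1qa, C1qb and C1qc, also not past it.

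Among genes of lineage and surface identity, Csf1r encodes the receptor for the growth factors CSF1 and IL-34. Csf1r read 8.59 and 7.21, 12.89 and 9.70, and 8.37 and 10.08. Adult replicate 2 thus lay above fibroblast replicate 2, and the adult and fibroblast groups overlapped. Spi1 read 6.27 and 6.29, then 9.0 and 5.75, then 6.32 and 6.12. Its excess was on fibroblast replicate 1 alone, with fibroblast replicate 2 the lowest of the 6 arrays. Ptprc, which encodes the pan-leukocyte phosphatase CD45, read 8.02 and 4.41, 11.00 and 7.82, and 4.92 and 7.00. Its neonatal cardiomyocyte replicates differed by 3.61, more than those of any other member, and replicate 1 lay above fibroblast replicate 2.

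Adgre1, the gene of a classical surface marker of mouse macrophages, read 6.54 and 5.10, 10.70 and 8.41, and 5.95 and 7.15. Both fibroblast arrays were above all others, with a neonatal difference of −3.74 ± 0.93 (SE, adjusted p = 0.145). Cd68, which encodes a glycoprotein of phagocyte lysosomes, read 6.11 and 5.89, 11.25 and 9.23, and 5.55 and 6.94. Its means were 6.00 ± 0.15, 10.24 ± 1.42 and 6.24 ± 0.98 (SD, n = 2 each). Cd68 was 16.0-fold lower in adult cardiomyocytes than in fibroblasts (limma difference −4.00 ± 0.78, SE, adjusted p = 0.0261), and differed by −4.24 in the neonatal comparison (adjusted p = 0.0832). Itgam, the integrin chain CD11b, read 4.27 and 3.59, 8.63 and 4.26, and 4.10 and 4.25, and was high on fibroblast replicate 1 alone.

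Ms4a7, a membrane protein gene of the MS4A family used as a macrophage marker, gave the widest neonatal difference among the members. Ms4a7 read 5.43 and 5.17 in neonatal cardiomyocytes, 11.30 and 10.28 in fibroblasts and 5.11 and 6.37 in adult cardiomyocytes. The fibroblast replicates lay within 1.02 of each other, and both stood far above every cardiomyocyte array. It fell by 5.49 ± 0.53 (SE) in neonatal cardiomyocytes against fibroblasts, 44.9-fold (adjusted p = 0.0424), and by 5.04 (33.0-fold, adjusted p = 0.00827) in adult cardiomyocytes. A dimmer Ms4a7 probe set differed by −1.04 in the neonatal comparison, and the mean of both probe sets by −3.26 (adjusted p = 0.0563), which ended that call. Cd84, a receptor of the SLAM family, read 5.24 and 5.11, 9.37 and 7.73, and 5.65 and 5.95. It fell by 2.75 in adult cardiomyocytes against fibroblasts (adjusted p = 0.0266) and differed by −3.37 in the neonatal comparison (adjusted p = 0.0668). With the mean of its 2 probe sets the adult difference was −1.58 (adjusted p = 0.0532), no longer past the threshold. Cd53 and Cd52, leukocyte surface proteins, stood at 11.23 and 8.37, and at 11.49 and 7.73, on the fibroblast arrays, above all cardiomyocyte arrays.

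The Fc receptors bind antibody, and Fcer1g and Tyrobp are the adaptors through which they and related receptors signal. Tyrobp read 7.53 and 6.06, 11.96 and 9.97, and 6.49 and 8.25, with no overlap between fibroblasts and either cardiomyocyte group. Its adult minus fibroblast difference of −3.60 had an adjusted p = 0.0551. Fcer1g and Fcgr3 were higher on both fibroblast arrays in the same way, with neonatal differences of −3.85 and −3.42. Fcgr1 read 5.67 and 5.56, 7.01 and 5.40, and 5.86 and 5.59 on its chosen probe set, within 1.61 on all 6 arrays. A dimmer probe set of Fcgr1 read 5.28 and 3.71, 9.22 and 6.14, and 4.82 and 5.28, with a neonatal difference of −3.19 against −0.59 for the chosen one. Trem2, a receptor that signals through Tyrobp and senses lipids, read 6.16 and 6.07, 8.60 and 7.72, and 6.45 and 6.40. Trem2 fell by 1.74 from fibroblasts to adult cardiomyocytes (adjusted p = 0.0220), but its other probe set differed by 0.26 in the opposite direction and the mean of both did not pass (adjusted p = 0.105).

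**Figure D2:**
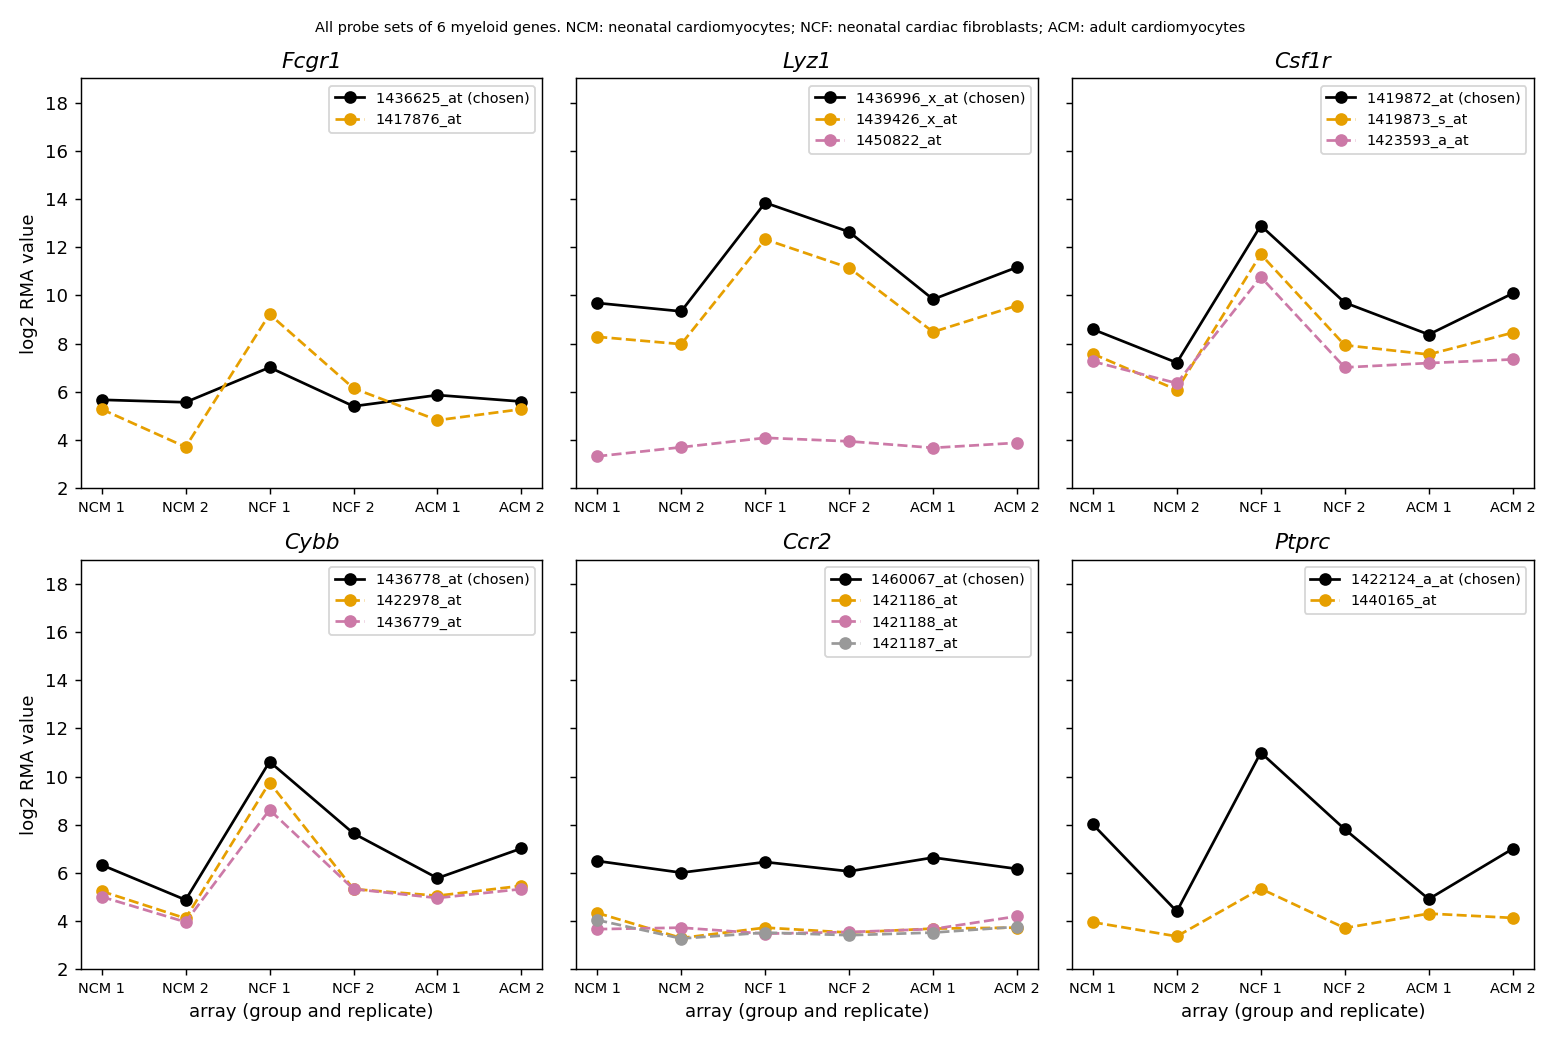
Log2 RMA value of every probe set of 6 myeloid genes on each array, with the probe set used for the gene in black. Fcgr1 is steeper on its dimmer probe set, 1 of the 3 Lyz1 probe sets lies between 3.32 and 4.09 on all arrays, and each of the 4 Ccr2 probe sets varies by little over 1 log2 unit at most.

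Of the 5 scavenger, lectin and pattern receptors, Clec4d and Cd163 passed the threshold, in opposite directions. Clec4d, a C-type lectin that recognises fungal and mycobacterial ligands, read 5.27 and 5.23, 9.35 and 8.60, and 5.02 and 5.16. Both fibroblast arrays stood more than 3 log2 units above all 4 cardiomyocyte arrays. It fell by 3.73 ± 0.28 (SE) in neonatal cardiomyocytes, 13.2-fold (adjusted p = 0.0424), and was 14.8-fold lower in adult cardiomyocytes (−3.89, adjusted p = 0.00496). Clec4n, its neighbour and a lectin receptor for fungal mannans, read between 3.93 and 5.50 on the cardiomyocyte arrays and 7.67 and 6.36 on the fibroblast arrays. Mrc1, the mannose receptor, read 7.15 and 4.57, 12.03 and 7.93, and 6.79 and 8.45, with a gap of 4.10 between the fibroblast replicates. Cd14, a co-receptor for lipopolysaccharide, read 6.22 and 5.01, 9.80 and 6.39, and 7.26 and 8.85, so that the adult and fibroblast means were 0.04 apart.

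Cd163, the haemoglobin scavenger receptor of tissue macrophages, did not follow the rest. Cd163 read 3.36 and 3.27 in neonatal cardiomyocytes, 3.17 and 3.30 in fibroblasts and 5.54 and 5.87 in adult cardiomyocytes. Only the adult arrays stood apart, and the neonatal values were under the lower quartile of every array (4.19 to 4.37 over the probe sets). Cd163 rose in adult cardiomyocytes, by 2.39 ± 0.19 (SE, adjusted p = 0.0198) on the log2 scale against neonatal cardiomyocytes and by 2.47 (adjusted p = 0.00566) against fibroblasts. No fold is given, since the neonatal values are not shown to be above background, and the filter on low values left Cd163 untested.

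Of the 8 lysosome, killing and phagocyte effectors, 5 fell in adult cardiomyocytes against fibroblasts, where 11.0% of all genes fell. Without adult replicate 1, which leaves 1 adult array, no member of any role was called in that comparison, nor was any other gene. Lyz2, the lysozyme of mouse macrophages, read 8.73 and 8.24, 13.63 and 11.59, and 8.87 and 10.32. Lyz1 read 9.68 and 9.34, 13.84 and 12.63, and 9.83 and 11.17 on a probe set whose design class (_x_at) allows cross-hybridisation. The 2 lysozyme genes are near-identical neighbours, so their signals cannot be separated with certainty. A probe set of Lyz1 outside that class lay between 3.32 and 4.09 on all arrays. Lyz1 fell by 2.74 from fibroblasts to adult cardiomyocytes (adjusted p = 0.0334), while the Lyz2 difference of −3.02 had an adjusted p = 0.0565. Ctss, the lysosomal protease cathepsin S, read 9.23 and 7.48, 12.70 and 11.11, and 7.26 and 8.67, and fell by 3.93 in adult cardiomyocytes (adjusted p = 0.0354). Mpeg1, the pore-forming perforin-2, read 7.42 and 6.47, 12.29 and 9.95, and 5.97 and 7.01, and was 24.8-fold lower in adult cardiomyocytes (adjusted p = 0.0234). Cybb, the catalytic subunit of the phagocyte NADPH oxidase, read 6.34 and 4.89, 10.62 and 7.64, and 5.79 and 7.02. The lysosomal membrane protein gene Laptm5 read 12.24 and 8.68 on the fibroblast arrays and between 5.66 and 7.45 on the others.

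Gpnmb and Lgals3 had the smallest gaps between the fibroblast replicates within this role, and other cell types are known to express them too. Gpnmb, a glycoprotein of lipid-laden and repair-associated macrophages, read 7.75 and 8.96, 10.51 and 10.62, and 6.03 and 6.47. Lgals3, the lectin galectin-3, read 8.27 and 10.25, 12.74 and 11.87, and 5.80 and 7.67. In both genes the neonatal cardiomyocyte arrays lay between the fibroblast and the adult arrays, and neonatal replicate 2 lay above replicate 1. Gpnmb was 19.9-fold lower in adult cardiomyocytes than in fibroblasts (−4.31, adjusted p = 0.00801), and Lgals3 47.4-fold lower (−5.57, adjusted p = 0.0174). Against neonatal cardiomyocytes the adult differences were −2.11 (adjusted p = 0.0803) and −2.53 (adjusted p = 0.190).

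The leukocyte actin-bundling protein gene Lcp1 read 8.19 and 7.62, 12.40 and 8.59, and 6.76 and 7.66. The calcium-binding microglia and macrophage marker Aif1 read 4.61 and 3.93, 9.18 and 6.70, and 4.30 and 5.44. Both were above all cardiomyocyte arrays on both fibroblast arrays, Lcp1 replicate 2 by less than 1 log2 unit. Neither passed the threshold in any comparison.

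Ccl6, Ccl9 and Pf4 encode chemokines, and Cx3cr1 and Ccr2 chemokine receptors of resident macrophages and recruited monocytes. Ccl6 read 5.75 and 5.06, 7.98 and 7.86, and 7.32 and 7.84. The fibroblast arrays lay just above the adult arrays (adult minus fibroblast −0.34, adjusted p = 0.462), and both groups above neonatal cardiomyocytes. Ccl6 fell by 2.51 in neonatal cardiomyocytes against fibroblasts (5.71-fold, adjusted p = 0.0492) and rose by 2.17 in adult against neonatal cardiomyocytes (4.5-fold, adjusted p = 0.0441). With the mean of its 2 probe sets neither passed (−2.03, adjusted p = 0.0602, and 1.76, adjusted p = 0.0538). Its neighbour Ccl9 read 6.42 and 5.92, 10.48 and 8.55, and 7.23 and 7.83, with differences of −3.35 and 1.36 that did not pass. Pf4, platelet factor 4, which macrophages also express, read 6.82 and 5.50, 9.69 and 8.81, and 7.97 and 8.64. Its adult arrays lay between the other groups, 2.14 above neonatal cardiomyocytes (adjusted p = 0.120).

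Cx3cr1 read 5.31 and 3.97, 11.13 and 5.24, and 5.09 and 4.74. The gap of 5.89 between the fibroblast replicates was the widest of any member within a group, and fibroblast replicate 2 lay inside the range of the cardiomyocyte arrays. Ccr2 read 6.50 and 6.02, 6.46 and 6.07, and 6.64 and 6.17, and its other 3 probe sets lay between 3.28 and 4.35. On the chosen probe set no group stood apart for Ccr2. On 1 of the dimmer ones the fibroblast arrays (3.48 and 3.55) lay just below the cardiomyocyte arrays (3.67 to 4.21).

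Taken as a list, the members were lower in neonatal cardiomyocytes than in neonatal fibroblasts for 37 of 38 means, the exception being Cd163. Of all genes 52.6% had the lower mean in neonatal cardiomyocytes. The median member difference was −3.47 (range −5.49 to 0.08), against −0.02 over all genes. Only 3 members fell (Ms4a7, Clec4d and Ccl6), where 0.143% of all genes fell. None rose, where 0.676% of all genes did. At an unadjusted p under 0.05 there were 29 members, and 2957 of all genes. The arrays of the 2 groups did not overlap for 31 members, where 23.2% of all genes were lower without overlap. The median standard error was 0.92 for the members and 0.25 for all genes. The smallest adjusted p over all genes was 0.0424. In such bulk RNA, fewer cells of a type and less RNA per cell cannot be told apart.

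The 3 calls did not hold under every removal of an array. Wherever all 3 were lost in the fits that follow, no gene outside the list was called either. The loss was thus not confined to the members. When the replicate 1 array of either neonatal group was left out, 0 members were called, with 27 (cardiomyocytes) and 21 (fibroblasts) at an unadjusted p under 0.05. Leaving out an adult array, which lends its spread to the fit, also gave 0, with 25 each time. Without fibroblast replicate 2, when replicate 1 stands alone for its group, the median member difference was −4.77. More genes were then called than with all arrays, both over the whole array and among the members. With groups by the titles 0 were called and 0 had an unadjusted p under 0.05, and the median difference was 0.75. Without both neonatal replicate 1 arrays 0 were called, 25 at an unadjusted p under 0.05.

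**Figure D3:**
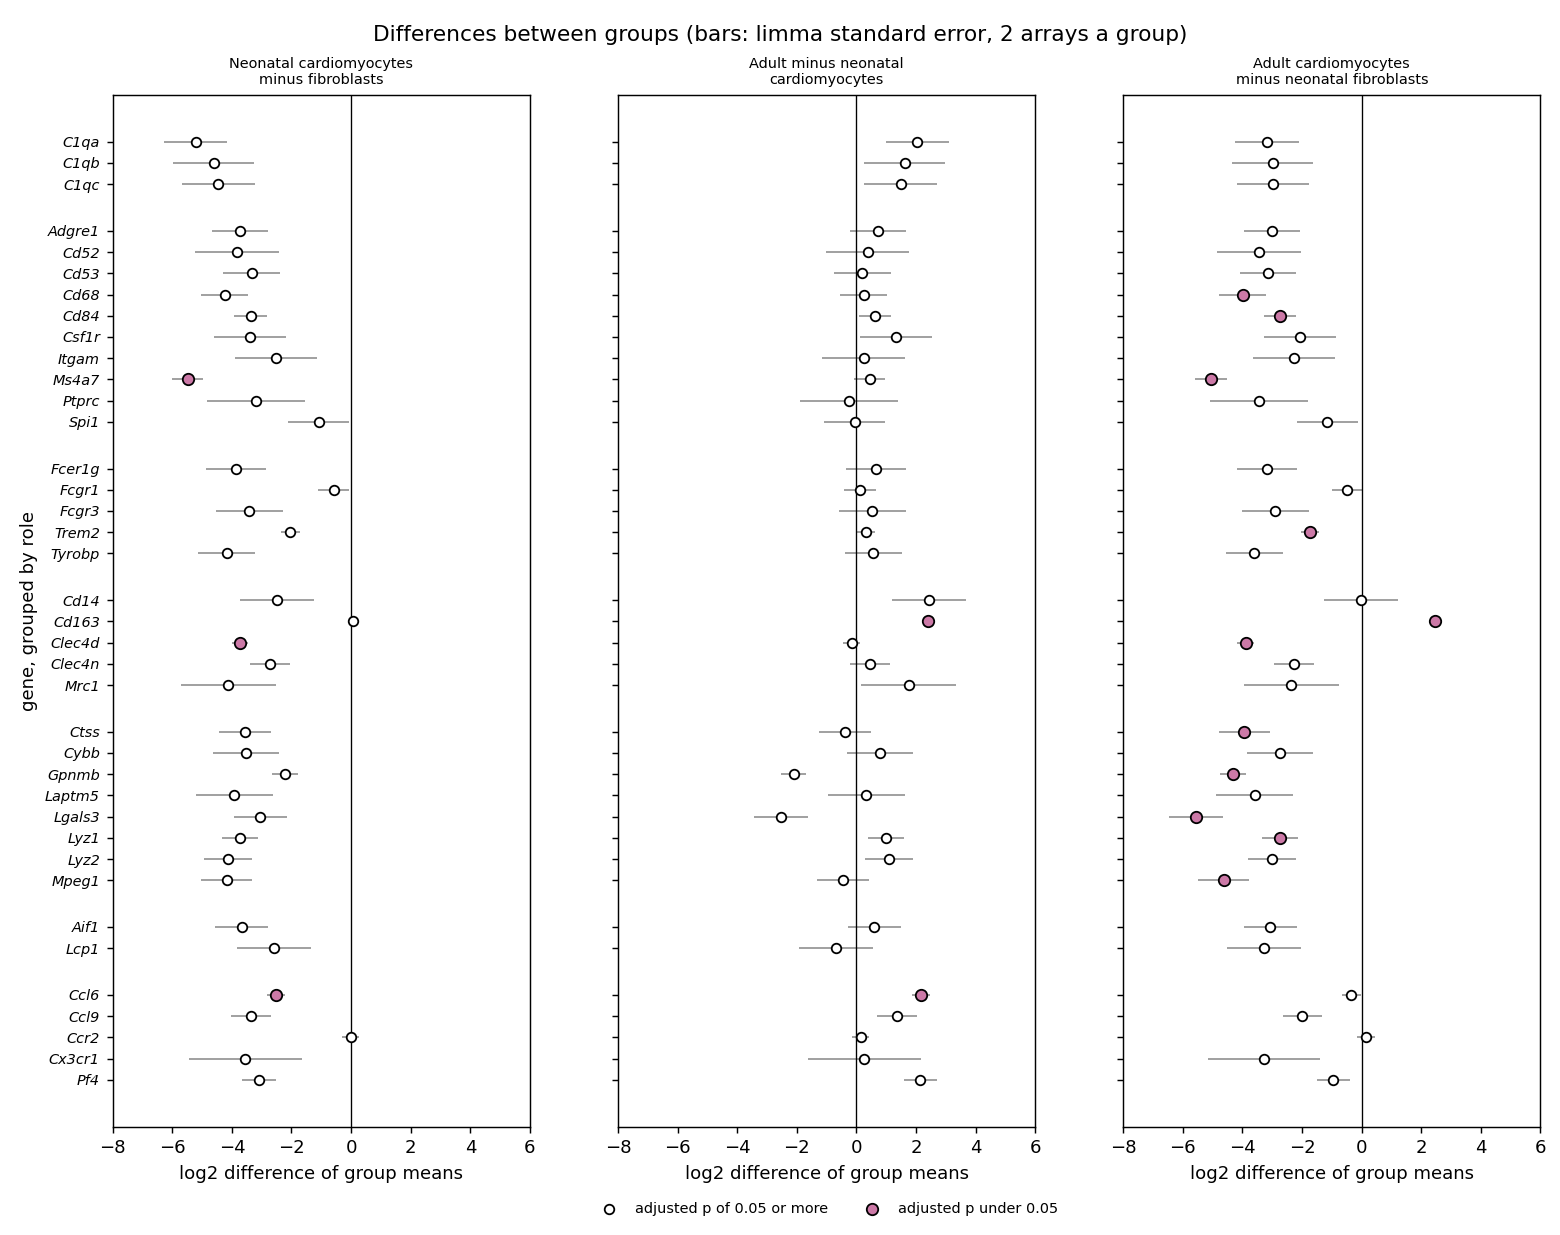
Log2 difference of each of the 38 measured members in the 3 comparisons, with the limma standard error as a bar and members past an adjusted p of 0.05 marked. In the neonatal comparison 37 of 38 points lie below 0, with 3 called.

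The fibroblast replicates themselves differed. Replicate 1 was higher for 36 of the 38 members, by a median of 2.32 (range −0.13 to 5.89), and by at least 1 log2 unit for 30, where 5.07% of all genes were. The median size of the gap over all genes was 0.26. Fibroblast replicate 1 lay above both neonatal cardiomyocyte arrays for 36 members, all by at least 1 log2 unit. Replicate 2 lay above both for 31 members, for 28 of them by at least 1. It did not for Spi1, Ptprc, Itgam, Fcgr1, Cx3cr1, Ccr2 and Cd163. The members nearest to equal between the fibroblast replicates, apart from Cd163 and Ccr2, were Gpnmb (−0.11), Ccl6 (0.12) and Clec4d (0.75).

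**Figure D4:**
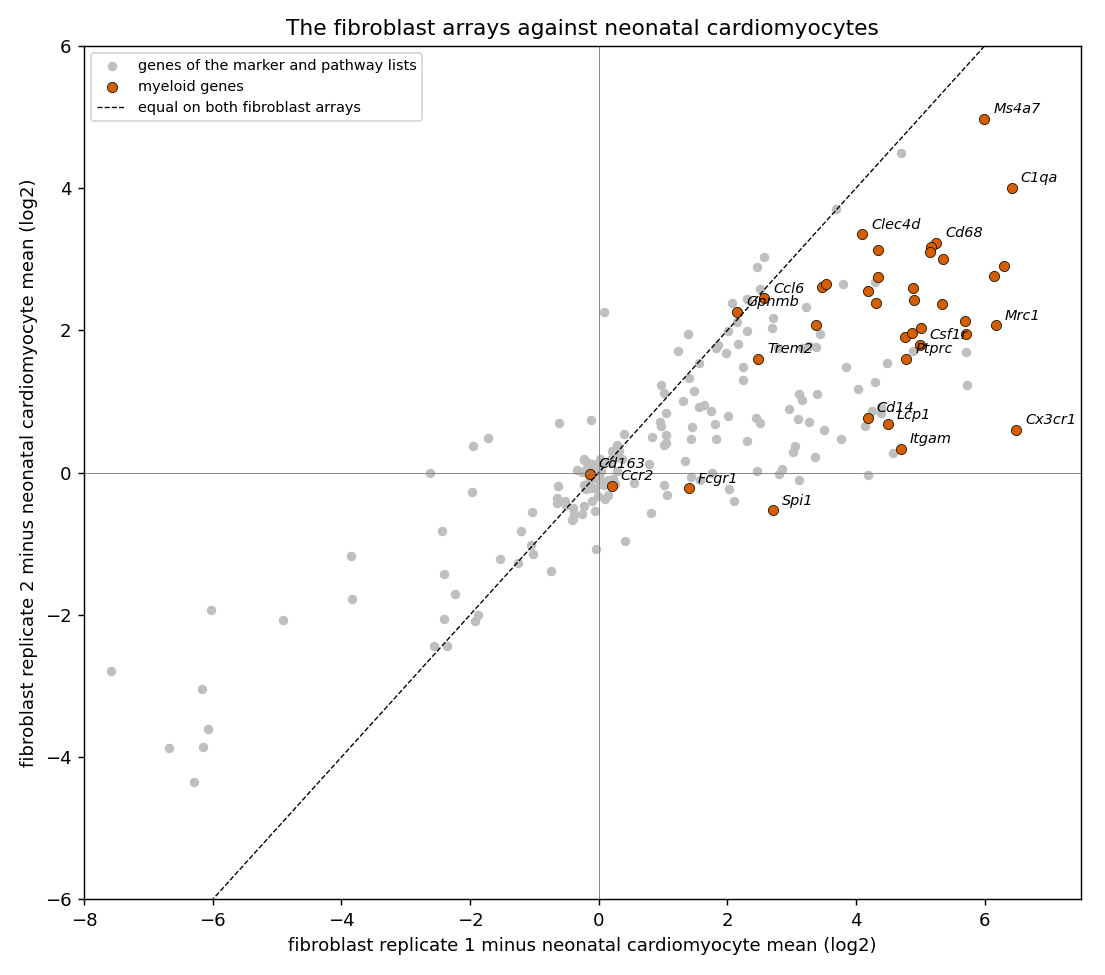
Log2 difference from the neonatal cardiomyocyte mean on fibroblast replicate 1 (horizontal) and on fibroblast replicate 2 (vertical), for the 38 members and for the genes of the other lists, with a dashed line where both are equal. Of the members, 36 lie to the right of or below that line, Cx3cr1 (5.89) the farthest.

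The other groups had smaller gaps. Neonatal cardiomyocyte replicate 1 was above replicate 2 for 35 members, by a median of 0.69. It was so by at least 1 for 16, where 4.66% of all genes were. Adult replicate 2 was above replicate 1 for 33 members, by a median of 1.15 in size (−1.15 as replicate 1 minus replicate 2). It was so by at least 1 for 22, where 5.17% of all genes were. Over all genes the medians lay between −0.03 and −0.01 in the 3 groups.

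In adult against neonatal cardiomyocytes, 30 members had the higher and 8 the lower mean, where 57.4% of all genes were higher and 42.6% lower. The median difference was 0.50 (range −2.53 to 2.44), against 0.09 over all genes. Cd163 and Ccl6 rose, where 1.08% of all genes rose, and none fell, where 1.22% did. The limma unadjusted p was under 0.05 for 5 members and for 4157 of all genes. The arrays did not overlap for 11 members that were higher and 3 that were lower, where 33.9% and 23.8% of all genes did not. C1qa, Cd14 and Pf4 were higher by more than 2 log2 units in the means without passing. With groups by the titles 1 member and 114 of all genes were called, and the median difference was −1.43. Leaving out 1 array at a time leaves 1 array in a group. The median then lay between 0.087 and 1.19, highest without adult replicate 1. Both calls were lost when any adult or neonatal cardiomyocyte array, or both neonatal replicate 1 arrays, were left out. In these fits no other gene was called either, save without neonatal cardiomyocyte replicate 1, where some were.

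Between adult cardiomyocytes and fibroblasts, 10 members fell (Cd68, Cd84, Clec4d, Ctss, Gpnmb, Lgals3, Lyz1, Mpeg1, Ms4a7 and Trem2), where 11.0% of all genes fell, and Cd163 rose, where 10.1% rose. The mean was lower for 36 members and higher for 2, where 44.0% and 56.0% of all genes were. The members' median was −2.995 (range −5.57 to 2.47) and that of all genes 0.09. Of the 38 members 31 were lower with no overlap between the arrays, where 30.2% of all genes were. With groups by the titles 1 member and 137 of all genes were called. Leaving out 1 array at a time leaves 1 array in a group, and the members' median then lay between −4.33 and −1.585. None of the calls held without adult replicate 1, where no other gene was called either. Without both neonatal replicate 1 arrays most of the calls were lost, as were most calls among all genes. This comparison shares its arrays with the other 2.

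Markers of other blood cells were set beside the members, and their part in the members' differences was not tested. Of 17 T, B and NK cell markers 14 were measured, and their median lay between 4.32 and 4.93 on all arrays, with none past the threshold (limma, 0, 2 and 3 at an unadjusted p under 0.05 in the 3 comparisons). Neutrophil markers (11 of 13 measured) had medians of 4.49 to 5.14, but their log2 summed level was 9.95 on neonatal cardiomyocyte replicate 1 and 8.01 to 8.56 elsewhere. Of them, Mpo and Cxcr2 rose in adult cardiomyocytes against fibroblasts, by 0.83 (adjusted p = 0.0410) and 0.90 (adjusted p = 0.0427). Their fibroblast values (3.86 to 4.24) lay at or under the arrays' lower quartile of 4.19 to 4.37, so they are not shown to be above background. None of the neutrophil markers passed in the other comparisons (0 and 2 at an unadjusted p under 0.05). S100a8, a calcium-binding protein abundant in neutrophils, read 7.88 on neonatal cardiomyocyte replicate 1 against 3.80 to 4.82 elsewhere. On the same array S100a9 read 8.69 against 4.03 to 5.11, and Ngp 6.40 against 4.37 to 5.67. The list's other measured markers stood there at most 0.60 (Csf3r) above neonatal cardiomyocyte replicate 2. Gzma, a granzyme of cytotoxic lymphocytes, read 6.33 on neonatal cardiomyocyte replicate 1 and 4.18 to 4.50 elsewhere. On that array Cd3d read 6.36 against 4.81 to 5.29, and Cd3g 6.24 against 3.84 to 4.12. The other measured T, B and NK cell markers stood there at most 0.695 (Cd79b) above neonatal cardiomyocyte replicate 2. The 8 markers of mast cells and basophils had a median of 5.63 there and 4.21 to 4.70 elsewhere, with 0 past the threshold. On fibroblast replicate 1, highest for 35 members, 0 of the 14 T, B and NK cell markers and 1 of the 11 neutrophil markers were highest. In the lists closer to the members, 4 of 12 resident macrophage markers and 2 of 7 monocyte markers had their highest value there. Of all genes 17.3% did. The resident macrophage median was 6.23 on fibroblast replicate 1, 6.65 on fibroblast replicate 2 and 7.64 on adult replicate 2, with a median neonatal difference of −0.23 (8 lower, 4 higher, 0 past the threshold and 2 at an unadjusted p under 0.05). The monocyte median was 7.20 and 8.18 on the fibroblast arrays and 5.23 to 6.58 on the cardiomyocyte arrays. On both fibroblast arrays it was the value of Nr4a1 itself, which was higher on every cardiomyocyte array (8.78 to 12.24). Plac8, Itga4 and S100a4 were higher on both fibroblast arrays than on any cardiomyocyte array. Chil3 and Treml4 stayed between 2.89 and 3.87 on all arrays. The monocyte list's neonatal median difference was −0.16 (4 lower, 3 higher, 0 past the threshold). In adult cardiomyocytes against fibroblasts, the monocyte markers Plac8 and Itga4 fell, by 4.135 and 4.17, and Nr4a1 and Ace rose, by 4.48 and 1.18.

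On the adult arrays other markers were high. Genes of dendritic cells and MHC class II, which present antigen, had a log2 summed level of 9.995 and 11.21 there against 8.63 to 9.17 on the neonatal arrays. All 10 measured genes had the higher mean in adult than in neonatal cardiomyocytes, but by a median of only 0.655. The dendritic cell genes Itgax (5.53 and 5.09), Xcr1 (4.55 and 4.08) and Cd209a (4.53 and 4.68) stayed low on the adult arrays. Zbtb46 was highest on fibroblast replicate 2 (7.23). H2-Aa read 7.70 and 9.97 in adult cardiomyocytes against 3.62 and 3.94 in fibroblasts (5.05, adjusted p = 0.0249), and H2-Eb1, Cd74 and Flt3 also rose. F13a1, coagulation factor XIII, a marker of resident macrophages, read 5.62 and 4.18, 4.52 and 4.31, and 8.23 and 8.58. F13a1 rose by 3.51 against neonatal cardiomyocytes (adjusted p = 0.0424) and by 3.99 against fibroblasts (adjusted p = 0.0104). Ppbp, a platelet chemokine, read between 4.12 and 4.59 on the neonatal arrays and 7.60 on both adult arrays. Of the 12 measured resident macrophage markers F13a1 alone passed, in both comparisons with adult cells. The vessel and macrophage marker Lyve1 read 8.08 and 4.27, 4.45 and 6.67, and 7.81 and 7.65, and Timd4 lay between 3.66 and 4.71 on all arrays. Maf, of the same list, was instead highest on fibroblast replicate 1. It read 8.11 and 8.325, 12.25 and 9.39, and 7.91 and 8.455. Its neonatal difference of −2.60 (limma adjusted p = 0.260) was the widest of the resident macrophage list.

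**Figure D5:**
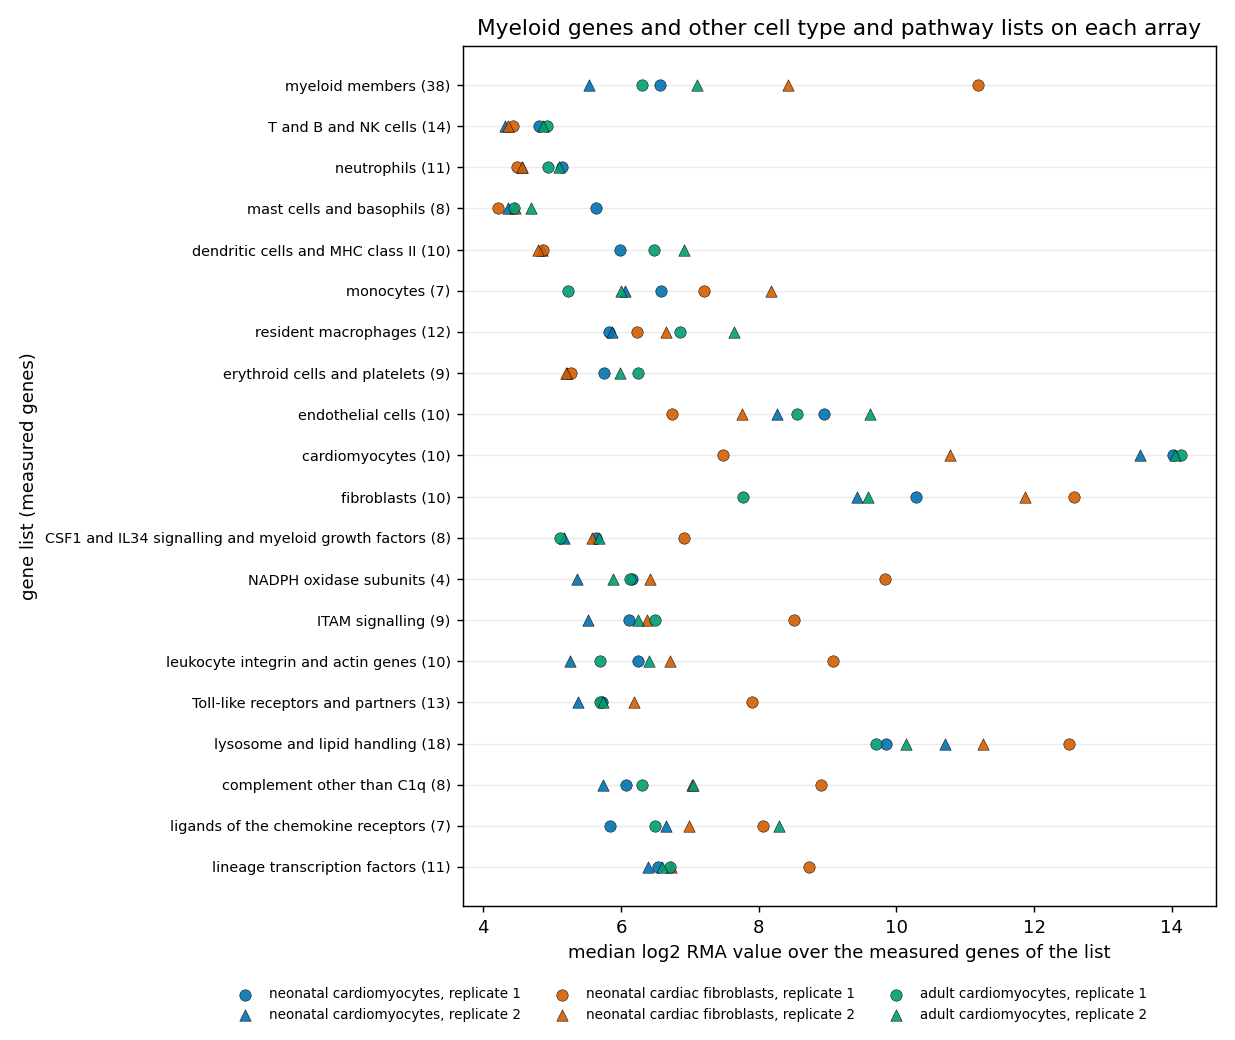
Median log2 RMA value of the 38 members and of each marker list on every array. The members peak on fibroblast replicate 1 at 11.18, while the T, B and NK cell and the neutrophil medians stay between 4.32 and 5.14 on all arrays.

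The remaining genes of macrophage pathways were taken from lists that do not hold the members. In the neonatal comparison none of them passed the threshold in any list (limma). Of all 18193 genes, 52.6% had the lower mean in neonatal cardiomyocytes, and 2957 had an unadjusted p under 0.05. Fibroblast replicate 1 was the highest array for 17.3% of all genes. All 10 leukocyte integrin and actin genes had the lower mean in neonatal cardiomyocytes (median −1.97, 5 at an unadjusted p under 0.05), and all 10 were highest on fibroblast replicate 1. Itgb2, the beta chain that pairs with Itgam, read 5.97 and 4.62, 10.19 and 7.01, and 5.42 and 6.43 (difference −3.30, adjusted p = 0.249). All 13 Toll-like receptor genes and partners were lower as well (median −1.37, 7 at an unadjusted p under 0.05). Ly86, which encodes the partner of a Toll-related receptor, read 6.63 and 4.99, 11.53 and 7.51, and 6.14 and 7.22. The 4 measured NADPH oxidase subunits were lower (median −2.19, 2 at an unadjusted p under 0.05), and Ncf1, a cytosolic subunit, read 10.24 and 6.68 on the fibroblast arrays and between 5.62 and 6.21 elsewhere.

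All 18 measured genes of lysosomes and lipid handling were lower in neonatal cardiomyocytes (median −1.20, 11 at an unadjusted p under 0.05). Between adult cardiomyocytes and fibroblasts 8 of them fell, where 11.0% of all genes did: Ctsa, Ctsl, Ctsz, Lipa, Npc2, Lamp2, Hexa and Grn. Ctsz, cathepsin Z, fell by 4.22 and Npc2, a cholesterol carrier of lysosomes, by 2.35. Genes of this kind serve lysosomes in most cell types. Ly96, Arhgdib and C3ar1 also fell in that comparison, by 2.27 (adjusted p = 0.0281), 3.35 (adjusted p = 0.0214) and 2.63 (adjusted p = 0.0462). Of the 9 measured genes of ITAM signalling, the route from Tyrobp and Fcer1g, 7 were lower in neonatal cardiomyocytes (median −1.24, 1 at an unadjusted p under 0.05). The B cell and myeloid linker Blnk read 5.06 and 5.01, 9.51 and 6.57, and 5.37 and 6.24.

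Of 11 lineage transcription factors 10 were lower in neonatal cardiomyocytes (median −1.45, 3 at an unadjusted p under 0.05). The widest difference among them was that of Maf (−2.60), also listed above as a resident macrophage marker. Irf8, a factor of monocyte and macrophage development, read 6.06 and 4.94, 9.0 and 6.10, and 5.86 and 6.89. Nr1h3, the sterol-sensing receptor LXR alpha, rose in adult cardiomyocytes against fibroblasts by 1.13 (adjusted p = 0.0345). Csf1, the ligand of Csf1r, read 7.89 and 12.20 in neonatal cardiomyocytes, 12.36 and 12.48 in fibroblasts and 9.38 and 9.77 in adult cardiomyocytes. Neonatal cardiomyocyte replicate 1 thus lay far below replicate 2 for the ligand and above it for the receptor. The list of CSF1, IL-34 and growth factor genes that holds Csf1 did not share the direction of the others, with 5 of 8 measured genes lower and 3 higher in neonatal cardiomyocytes (median −0.18, 0 at an unadjusted p under 0.05). Kitl, the ligand of the receptor Kit, rose in adult cardiomyocytes against fibroblasts by 2.41 (adjusted p = 0.0216). Of 8 measured complement genes other than C1q, 6 were lower and 2 higher (median −1.94, 3 at an unadjusted p under 0.05), and of 7 chemokine ligands 6 were lower and 1 higher (median −2.54, 2 at an unadjusted p under 0.05). Ccl12, a ligand of Ccr2, read 4.50 and 3.77, 9.86 and 5.37, and 4.79 and 7.24.

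Across the 6 arrays, the members' own correlation with the mean of the list was near 1 for Aif1 (0.999) and low for Ccr2 (0.11) and Cd163 (−0.32), with Gpnmb (0.65), Ccl6 (0.69) and Lgals3 (0.71) between. Among genes outside the list with a range of at least 3 log2 units, those most like the members' mean were Evi2a (Pearson r = 0.997), Slc11a1 (0.994), Slc15a3 (0.992), Nckap1l (0.992) and Itgb2 (0.990). Slc11a1 is the phagosomal metal transporter of macrophages, and Evi2a read 9.38 and 6.66 on the fibroblast arrays and between 4.05 and 6.00 elsewhere. These correlations are descriptions over 6 points that include 1 array far above the others.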

How the data were processed

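Biotin-labelled RNA was measured on 6 Affymetrix arrays. The authors deposited log2 values per probe set, processed with RMA per the submitters' processing notes, which corrects background, normalizes by quantiles and summarises probes. Its version, the genome build and joint processing are not given in the sources used here. Medians per array were 5.60 to 5.67. RMA gives no detection call, low values are compressed, and the number of arrays limits the precision. Of 45101 probe sets (64 controls), GEO's annotation named 34945 to 1 gene and 932 to several, and 9160 were unnamed. Each of 18193 genes was taken from its brightest probe set by mean. Among the 38 measured members, 18 had several probe sets, which shared a sign for 16, 15 and 16 genes in the 3 comparisons.

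A single fit over the 6 arrays estimated 1 mean a group with lmFit and eBayes (limma 3.58.1, R 4.3.3), with two-sided tests, with Benjamini-Hochberg adjustment over all genes and a threshold of 0.05. The script was tested on simulated data. Differences are on the log2 scale, folds are 2 to that power, and "rose" and "fell" mark genes past the threshold. The members, roles and lists were chosen with earlier results of these data known. Every measured member is named. Values on every array are given for members past the threshold, for the highest and lowest of each role and for a fixed set of well-known markers. Promoter sequences are from RefSeq (GRCm38.p6). Alternatives were the titles' grouping, removal of arrays, a replicate block, a filter on low values, the mean of all probe sets, renewed quantile normalization, and trend with robust variance.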

Additional observations from a re-analysis of the deposited data

How the results depend on the processing

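Leaving out 1 array at a time gave 0 to 14 called members for neonatal cardiomyocytes minus fibroblasts (3 with all arrays), 0 to 1 for adult minus neonatal cardiomyocytes (2) and 0 to 20 for adult cardiomyocytes minus fibroblasts (11), with medians of −4.77 to −2.31, 0.087 to 1.19 and −4.33 to −1.58. With groups by the titles the counts were 0, 1 and 1 and the medians 0.75, −1.43 and −0.63, and the neonatal differences of Ms4a7 and Clec4d were 0.38 and 0.35. Without both neonatal replicate 1 arrays the counts were 0, 0 and 2. A group left with 1 array is assumed to vary like the others. Where these fits called no member in the neonatal comparison, they called no other gene in it either. The cause of these changes was not tested, beyond the fewer arrays and the exchanged labels themselves. The mean of all probe sets gave 1, 1 and 9 called members (59, 354 and 3497 of all genes). The filter on low values gave 4, 1 and 13 of 37 members (273, 426 and 3859 of the genes kept). Renewed quantile normalization gave 3, 2 and 11 (126, 465 and 3739 of all genes). Trend with robust variance gave 3, 2 and 13 (216, 376 and 3802). With the replicate number as a block the counts were 0, 1 and 11, and 0, 607 and 4811 of all genes were called. The differences between replicates correlated at 0.183, 0.268 and 0.207 between the groups, over 18193 genes, but no label says that a number marks a shared preparation and each comparison has 2 pairs, so the pairing was not used. Depth is unknown for arrays, and values near the lower quartile of about 4.19 to 4.37 may hide differences.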
